A study of Mus musculus with 6 samples.

Results

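The genes followed here take up, cleave, store, oxidise or clear vitamin A, and were measured in the ileum of young mice: Scarb1, Bco1, Rbp2, Lrat, Rdh7, Aldh1a1, Aldh1a2, Cyp26b1 and Isx. They were found by symbol alone, with Bcmo1 taken as the older name of Bco1, and the rule itself uses no measured value, although the list was drawn up with earlier results of these data known. The 9 genes, of 19695 named on the array, had 11 of its 26423 probes, 3 of them for Bco1 and 1 for each other gene. Of the 9 genes, 8 had a probe above background in at least 1 sample, and these stand among 12196 genes tested. Aldh1a2 was not above background in any sample and was not tested.

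The study hybridised ileal total RNA of C57BL/6J mice to 1-colour Mouse OneArray slides. The ileum is the last stretch of the small intestine. The 6 samples fall into 5 groups. The humanized gnotobiotic preweaned sample (n = 1) came from a mouse that carries a defined community, with no statement of its members in the labels. SPF mice, also called conventional in the labels, were kept in specific pathogen free housing and sampled postweaned (n = 1) and preweaned (n = 1). Germ-free mice were kept in isolators and sampled postweaned (n = 1) and preweaned (n = 2, called germ-free preweaned 1 and 2 here). The design text gives an age of 3 weeks to the gnotobiotic mouse and to germ-free RNA used beside it, without saying which germ-free sample that was. Neither the other ages nor the sexes or any pooling of mice are stated in the labels. Nothing in the labels says that the germ-free preweaned pair came from separate litters or experiments, so the p-values rest on the spread of that pair, part of which may be technical. With n = 1 in 4 of the 5 groups, that pair supplied the only residual degree of freedom (1).

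Vitamin A reaches the gut as retinyl esters, which are split in the lumen to retinol, and as carotenoids from plants. Enterocytes absorb carotenoids through scavenger receptor B1 (Scarb1), cleave beta-carotene to retinal with Bco1, carry retinol and retinal on the cellular binding protein Rbp2, and esterify retinol with Lrat for export in chylomicrons. Retinol dehydrogenases such as Rdh7 and retinal dehydrogenases such as Aldh1a1 and Aldh1a2 make retinoic acid, the form that binds nuclear receptors, and Cyp26b1 degrades it. Isx, a homeobox protein of the intestine, is induced by retinoic acid and represses Scarb1 and Bco1 in mice, which closes a feedback loop on vitamin A uptake.

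Promoter windows from RefSeq (build GRCm38.p6, 250 bases before to 50 after a start site) were held for 8 of the 9 genes, Scarb1 being the exception. Those of Bco1 and Rbp2, a carotenoid-cleaving enzyme and a retinol carrier that share the route into the enterocyte, are shown because TGACCTTTGAC, the longest run of letters they share (11 bases), stands at nearly the same distance from both start sites. Searched on both strands, it was in no other window of the 9 genes. The run overlaps the hexamer AGGTCA on the other strand, the core that many nuclear receptors bind. Capitals mark the run and any AGGTCA hexamer on either strand. Bco1 is shown from chr8:117095615-117095914 on the plus strand, and Rbp2 from chr9:98490287-98490586 on the plus strand.
Bco1: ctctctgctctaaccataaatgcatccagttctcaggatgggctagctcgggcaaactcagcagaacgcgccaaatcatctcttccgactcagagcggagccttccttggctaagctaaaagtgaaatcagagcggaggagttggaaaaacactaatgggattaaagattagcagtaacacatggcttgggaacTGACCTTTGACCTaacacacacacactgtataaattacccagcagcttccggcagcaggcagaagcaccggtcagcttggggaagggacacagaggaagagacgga
Rbp2: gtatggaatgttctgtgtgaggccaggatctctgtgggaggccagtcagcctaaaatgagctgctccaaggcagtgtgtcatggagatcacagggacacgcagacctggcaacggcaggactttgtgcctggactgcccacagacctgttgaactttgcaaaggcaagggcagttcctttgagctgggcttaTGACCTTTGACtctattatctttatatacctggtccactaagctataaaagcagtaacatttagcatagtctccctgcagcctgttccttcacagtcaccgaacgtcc
It began at position -56 in Bco1 and at -58 in Rbp2, counted from the start site. The same letters were found in 12 of 32851 promoter windows of the same length (0.0365%), whereas AGGTCA alone was in 16.3% and TATAAA in 13.6%. The run was picked after the windows had been read. Of 28 pairs of these genes, 3 shared a run of 11 bases, so the length alone does not set this pair apart, and a match describes letters, not a bound site. Bco1 and Rbp2 did not share a pattern across the 6 samples (Pearson r = -0.02 over 6 samples, given as a description).

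Levels are given throughout as log2(quantile-normalised intensity + 50), and a difference is the first-named group minus the other on that scale. The offset of 50 makes differences of dim probes smaller than they would be on the intensity itself. A sample's probe was taken as above background when most of that sample's arrays had a deposited detection p-value under 0.05. Probes differ in brightness for reasons other than abundance, so no gene's level was set against that of another gene. In whole tissue, fewer cells of a type and less RNA per cell cannot be told apart.

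Across the 21 arrays, 29.8% to 50.3% of probes were detected, and arrays of the same sample had a median SD of 0.079 to 0.124. All 12 enterocyte markers were above background in every sample, and 6 (humanized) to 10 (SPF postweaned) of 10 markers of the distal ileum were. Marker counts cover tested genes only: 8 of 12 listed for fibroblast and smooth muscle, 12 of 16 for dendritic cell and macrophage. For B and T lymphocyte it was 8 of 12. Some passed only through the sample where they are high, among them Vwf, Tek, Adgre1 and Zbtb46 (humanized) and Cd3g (SPF postweaned). Counts that favour those samples lean on this filter. The 2 germ-free preweaned samples stood apart from each other: the median gap was 0.44 over all genes, and 2342 of 12196 genes (19.2%) lay 2-fold or more apart. The file of germ-free preweaned 1 holds 2 sets of 3 arrays, and these differed in Y-linked transcripts, with Ddx3y at 9.63 in one set and 6.01 in the other. No label says whether the sets came from the same mouse, so germ-free preweaned 1 may hold more than 1 animal. Both sets were averaged as 1 sample. A further divide runs between samples: 44 probes were at background in 3 samples and bright in the other 3, always with germ-free preweaned 1 and 2 and the humanized sample on one side and germ-free postweaned and both SPF samples on the other. Between those sides 391 of the tested genes were separated by at least 2-fold, none of them among the 8 vitamin A genes that were tested. The widest gaps between the side means among these 8 were those of Scarb1 (8.44 against 6.92) and Bco1 (7.76 against 9.16). The sample levels of both genes did not overlap between the sides, although single arrays did. The share of all genes without such overlap was not counted, so this is given as a caution only. Within a side stay 3 comparisons (humanized against germ-free preweaned, SPF against germ-free postweaned, and weaning in SPF ileum). The other 3 pairs of groups cross it, and there group and side cannot be told apart. No label names what sets the sides apart.

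**Figure D1:**
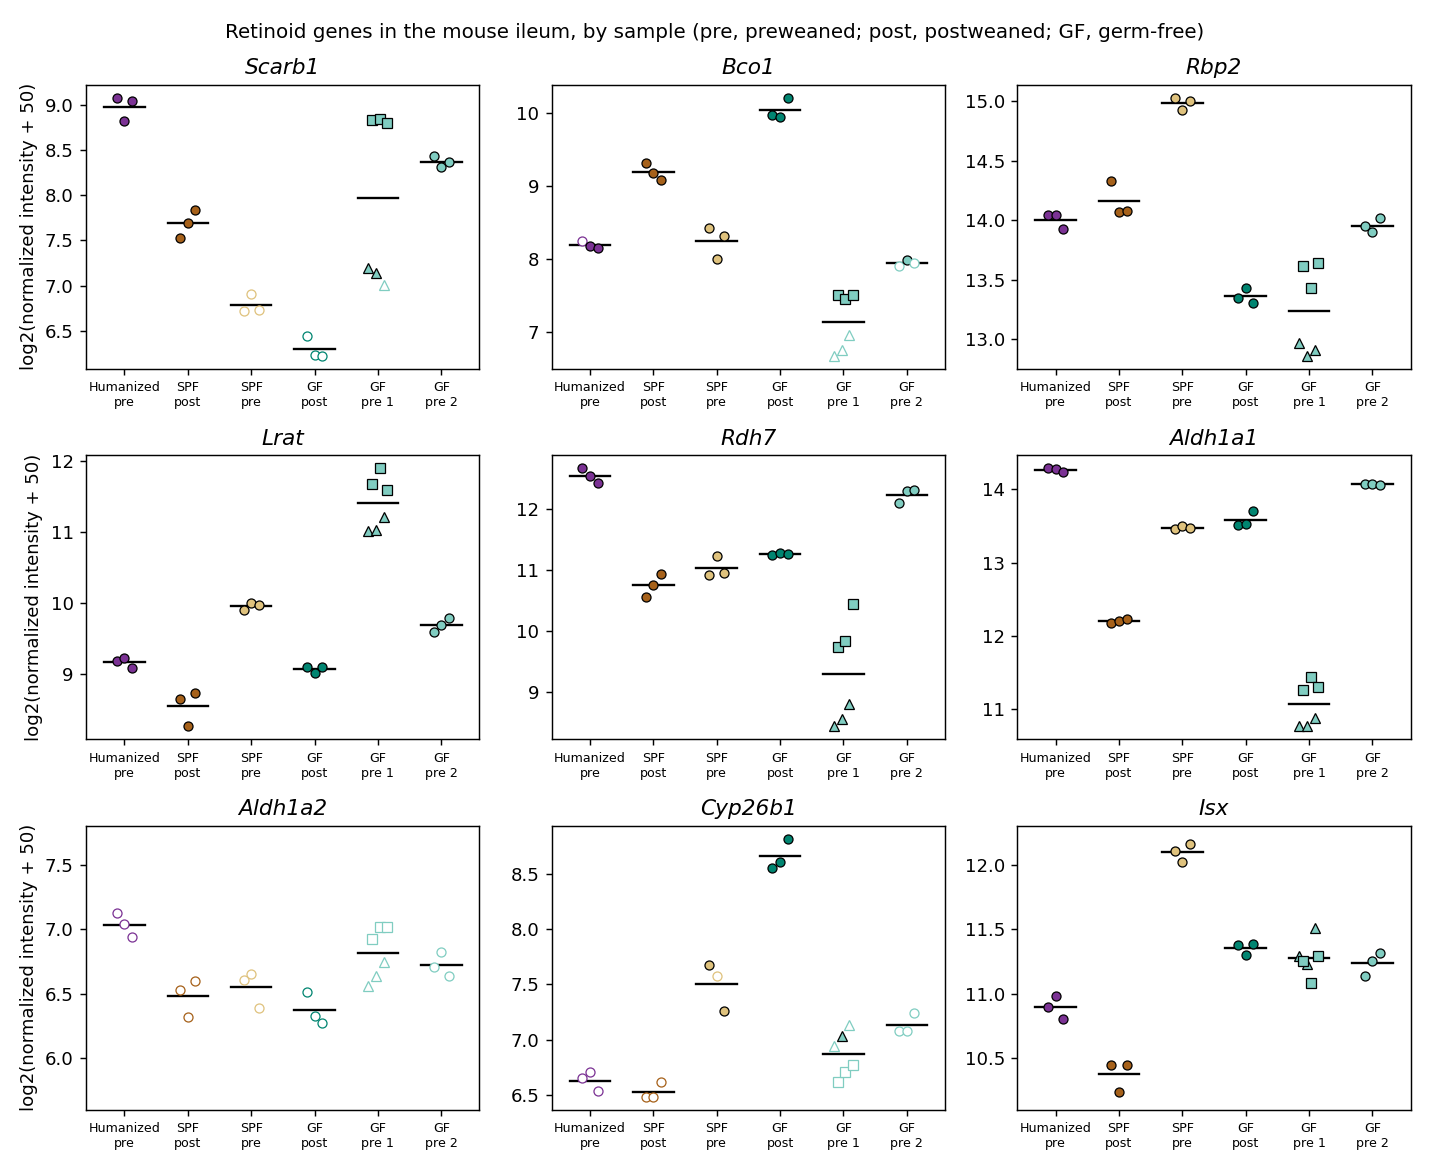
Log2 level of each vitamin A gene (y axis, log2(normalised intensity + 50)) on every array, by sample (x axis). Points are arrays, open where not detected, the line is the sample mean, and triangles and squares are the 2 array sets of germ-free preweaned 1; Rdh7, Aldh1a1 and Lrat differ most within the germ-free preweaned pair, Isx least, and every Aldh1a2 point is open.

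Scarb1, the receptor through which enterocytes take up carotenoids, was detected on all 3 arrays of the humanized sample at 8.98 and of the SPF postweaned sample at 7.69. It was detected on 0 of 3 arrays in SPF preweaned ileum, at 6.79, and on 0 of 3 in germ-free postweaned ileum, at 6.30. The germ-free preweaned pair stood at 7.97 and 8.37. The humanized sample and the germ-free preweaned pair were thus the brightest, and the steps from humanized to germ-free preweaned and on to SPF postweaned ileum were each wider than the 0.40 between the pair. SPF preweaned and germ-free postweaned ileum, both not above background, have no order between them. The array sets of germ-free preweaned 1 disagreed, at 7.11 and 8.82, so the gap within that file was wider than that between the paired samples.

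Bco1, the enzyme that cleaves beta-carotene, was highest in the postweaned samples, at 9.19 in SPF and 10.04 in germ-free ileum. Preweaned levels were 8.19 in the humanized sample (2 of 3 arrays detected), 8.25 in SPF, and 7.14 and 7.95 in the germ-free pair, in which 4 of 9 arrays detected the probe. All 3 arrays of each postweaned sample lay above every preweaned array. The steps between germ-free postweaned, SPF postweaned and the preweaned groups exceeded the pair's gap of 0.80, while the 3 preweaned groups lay within it of their neighbours. The remaining probes for Bco1 were not above background in any sample, with levels of 5.79 to 6.60 and of 5.75 to 6.08, so they bear on no difference.

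Rbp2, which carries retinol in enterocytes, was bright on every array. It stood at 14.005 in the humanized sample, 14.16 in SPF postweaned, 14.99 in SPF preweaned and 13.36 in germ-free postweaned ileum. The germ-free preweaned pair had 13.24 and 13.96, a gap of 0.72. SPF preweaned ileum was the high sample and its arrays (14.93 to 15.03) overlapped no others. Only the step between it and SPF postweaned ileum, 0.83, was wider than the pair's gap.

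Lrat, which esterifies retinol for export and storage, had its highest level in germ-free preweaned 1 at 11.40, against 9.68 in germ-free preweaned 2. It stood at 9.16 in the humanized sample, 8.54 in SPF postweaned, 9.95 in SPF preweaned and 9.06 in germ-free postweaned ileum. Within SPF mice and within germ-free mice, the postweaned sample was below each preweaned one. No step between neighbouring groups was as wide as the 1.72 between the pair.

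Rdh7, a microsomal retinol dehydrogenase, stood at 12.55 in the humanized sample, 10.76 in SPF postweaned, 11.04 in SPF preweaned and 11.27 in germ-free postweaned ileum. The germ-free preweaned pair had 9.31 and 12.24. The gap of 2.93 in that pair exceeded the whole spread of the 5 group means, 1.80. Rdh9 and Rdh16, close relatives of Rdh7 in the same gene cluster, had other patterns: Rdh9 was highest in germ-free postweaned ileum at 12.52 and Rdh16 in SPF postweaned at 9.48. Probe sequences are not in the files used, and cross-hybridisation among these relatives was not tested.

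Aldh1a1, a cytosolic retinal dehydrogenase, showed the same split. It stood at 14.27 in the humanized sample, 12.20 in SPF postweaned, 13.47 in SPF preweaned and 13.58 in germ-free postweaned ileum, with 11.07 and 14.07 in the germ-free preweaned pair. The pair differed by 3.00, the widest gap among the 9 genes. Aldh1a2, the retinal dehydrogenase of stromal and dendritic cells in the gut, was not detected on any of the 21 arrays, at 6.37 to 7.03. At this sensitivity no difference in Aldh1a2 could be measured. Of the dendritic cell and macrophage markers, 12 of 12 tested were above background in the humanized sample, 10 in SPF postweaned, 3 in SPF preweaned, 3 in germ-free postweaned, and 8 and 9 in the germ-free preweaned pair, and the part of those cells in any retinoid level was not tested.

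Cyp26b1, which hydroxylates retinoic acid for clearance, was above background in 2 samples only. Germ-free postweaned ileum had 8.66 (3 of 3 arrays detected) and SPF preweaned ileum 7.50 (2 of 3). The others were at 6.63 in the humanized sample and 6.53 in SPF postweaned ileum (0 of 3 arrays each), and at 6.87 (1 of 6) and 7.13 (0 of 3) in the germ-free preweaned pair. Germ-free postweaned ileum was therefore the high sample, with no array of another sample reaching its lowest, 8.55.

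Isx, the homeobox repressor of Scarb1 and Bco1, differed least within the germ-free preweaned pair, at 11.28 and 11.24. It stood at 10.89 in the humanized sample, 10.38 in SPF postweaned, 12.10 in SPF preweaned and 11.36 in germ-free postweaned ileum. SPF preweaned ileum was the high sample and SPF postweaned the low one. All steps between neighbouring groups were wider than the pair's gap of 0.04, but that gap is a weak yardstick. The SD between arrays of a sample was 0.047 to 0.13, and the array sets of germ-free preweaned 1 stood at 11.35 and 11.21. The step of 0.099 between germ-free postweaned and preweaned ileum lies within such spread. Bco1 was highest in germ-free postweaned ileum and Scarb1 in the humanized sample, and the part of Isx in either was not tested. Across the 6 samples the Pearson correlation of Isx was -0.49 with Scarb1 and -0.20 with Bco1, given as a description of 6 points that share arrays and normalisation.

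**Figure D2:**
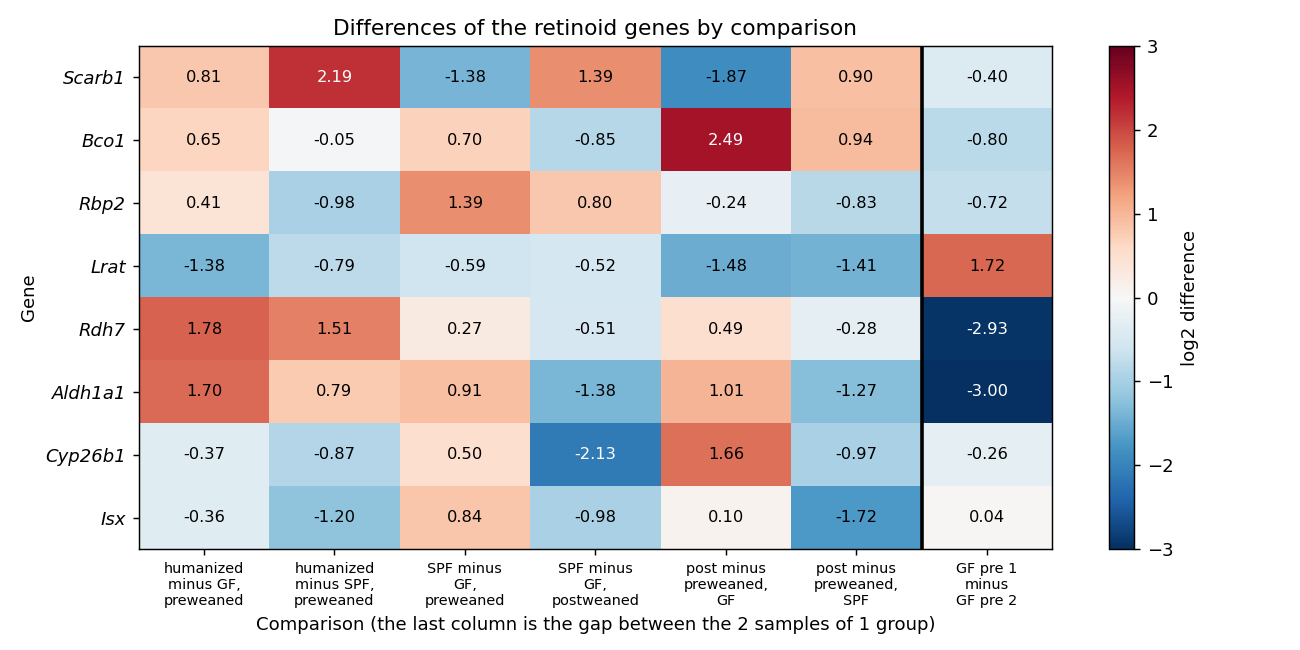
Log2 difference of the 8 tested genes (rows) in each comparison (columns, first-named group minus the other), with the gap between germ-free preweaned 1 and 2 in the last column. Red is higher and blue lower in the first-named group; for Rdh7 and Aldh1a1 the last column (-2.93 and -2.997) is larger than any comparison.

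Weaning in germ-free ileum was compared first, since it asks how the genes differ with age and diet when no microbes are present. The comparison crosses the divide, on which the sample levels of Bco1 and Scarb1 separate, so group and side cannot be told apart. In postweaned germ-free ileum Bco1 was higher by 2.49 ± 0.55 (SE), at 10.04 against 7.14 and 7.95. Cyp26b1 was higher by 1.66 ± 0.41 (SE), at 8.66 against 6.87 and 7.13. Neither gene was above background in the germ-free preweaned samples, where 4 of 9 arrays detected Bco1 and 1 of 9 Cyp26b1, so both sizes are set in part by background signal and no fold is given. Scarb1 ran the other way, at 6.30 against 7.97 and 8.37, a difference of -1.87 ± 0.44 (SE). Because Scarb1 was not above background after weaning, it is given as at least 1.56-fold lower. Such a bound sets the bright group's mean against, on each array, the higher of the probe's own level and the lowest detected signal.

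Bco1, Cyp26b1 and Scarb1 had unadjusted limma p-values of 0.0152, 0.0222 and 0.0184 in this comparison. After Benjamini-Hochberg adjustment over all 12196 genes the smallest limma p among the 8 tested vitamin A genes was 0.598, so 0 of 8 were called, as were 0 of all genes (0%). At an unadjusted p under 0.05 stood 927 genes (7.60%). By size, 3 of 8 genes were 2-fold or more higher and 2 lower, against 11.6% and 12.7% of all genes (24.3% in either direction). Bco1, Cyp26b1 and Scarb1 count there by fitted differences that rest in part on background signal. Lrat was lower by 1.48 and Aldh1a1 higher by 1.01, yet neither exceeded the gap of its preweaned pair. Aldh1a1 turned to -0.48 against germ-free preweaned 2 alone. Rdh7 was 0.49 higher on average, at 1.96 against germ-free preweaned 1 and -0.97 against 2. The difference was -0.24 for Rbp2 and 0.10 for Isx. Against germ-free preweaned 2 alone 3 of the 8 genes were at 2-fold or more, and against germ-free preweaned 1 alone 6 were. Suckling enterocyte markers were lower in 14 of 16 cases (11 at 2-fold or more). At 2-fold or more, 13 were lower against germ-free preweaned 1 alone but 4 against 2 alone. Dendritic cell and macrophage markers were 2-fold or more lower in 8 of 12 (7 and 9 against each alone). The part of either marker set in the vitamin A genes was not tested.

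Weaning in SPF ileum, the same step with microbes present, gave a different set of values. Isx was lower by 1.72 ± 0.46 (SE; 3.29-fold), with SPF postweaned arrays at 10.24 to 10.45 against 12.02 to 12.16 in SPF preweaned ileum. Lrat was lower by 1.41 and Aldh1a1 by 1.27, both less than the gap within the germ-free preweaned pair for those genes. Cyp26b1 was not above background after weaning and is given as at least 1.69-fold lower, and Scarb1, not above background before weaning, as at least 1.22-fold higher. Bco1 was higher by 0.94 ± 0.63 (SE), at 9.19 against 8.25, and Rbp2 lower by 0.83 ± 0.60 (SE), at 14.16 against 14.99. Rdh7 differed by -0.28.

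None of the 8 genes was called in SPF weaning by limma (0 of 8, and 0% of all genes). The smallest limma p-values belonged to Isx, 0.0265 unadjusted and 0.944 adjusted, and 627 of all genes (5.14%) had an unadjusted p under 0.05. By size, 0 of 8 were 2-fold or more higher and 3 of 8 lower (Isx, Lrat, Aldh1a1), beside 10.5% and 8.64% of all genes (19.2% in either direction). The median difference of the 8 was -0.90, against -0.04 over all genes. Markers of the suckling enterocyte, the lysosome-rich absorptive cell of the unweaned ileum, were lower in the same comparison in 15 of 16 cases, with 14 of 16 at 2-fold or more, and B and T lymphocyte markers were higher in 8 of 8, with 5 at 2-fold or more. Their part in the vitamin A genes, of which 6 were lower and Scarb1 and Bco1 higher, was not tested.

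**Figure D3:**
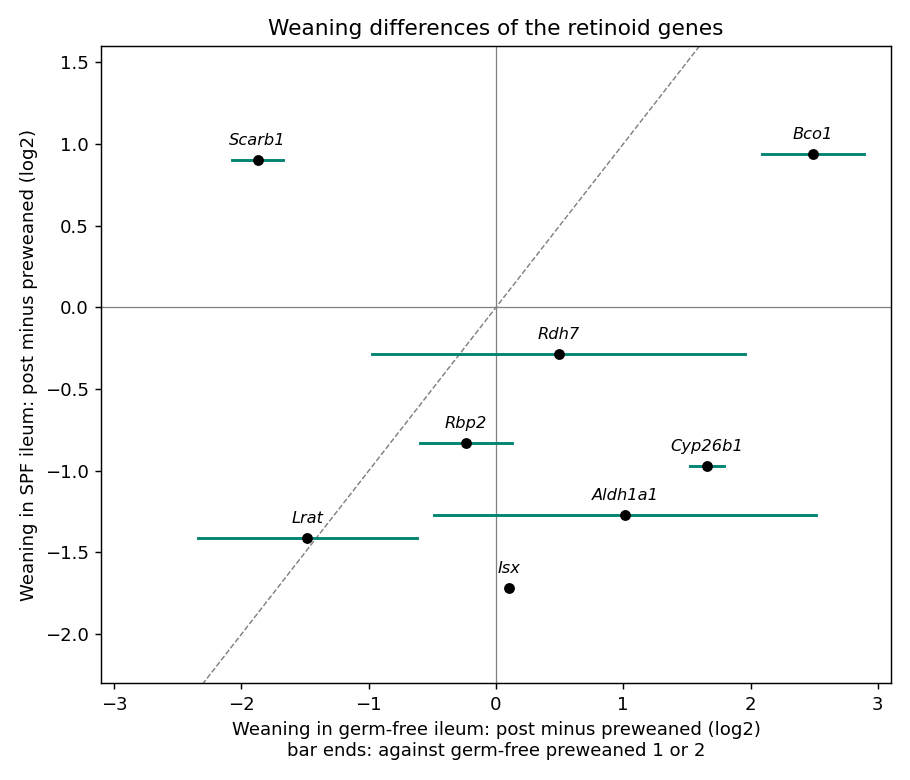
Postweaned minus preweaned log2 difference of each gene in germ-free ileum (x axis) and in SPF ileum (y axis). Points use the mean of the germ-free preweaned pair, bars reach to the difference against each of the pair alone, and the dashed line marks equal differences; Scarb1, Cyp26b1, Rdh7, Aldh1a1 and Isx lie in quadrants of opposite sign, Lrat, Bco1 and Rbp2 in those of the same sign.

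Whether weaning differed between SPF and germ-free mice was tested directly as an interaction. Scarb1 was higher after weaning in SPF ileum (0.90) and lower in germ-free ileum (-1.87), a difference of 2.77 ± 0.67 (SE). Cyp26b1 was lower in SPF (-0.97) and higher in germ-free ileum (1.66), a difference of -2.63 ± 0.63 (SE). Isx was lower in SPF (-1.72) and nearly level in germ-free ileum (0.10), a difference of -1.82 ± 0.60 (SE). Scarb1 was not above background in SPF preweaned or germ-free postweaned ileum, nor Cyp26b1 in SPF postweaned or germ-free preweaned ileum, so the fitted sizes and errors of both rest partly on background signal. These were the 3 vitamin A genes with an unadjusted limma p under 0.05 (0.0201, 0.0199 and 0.0490), a level that 771 genes in all (6.32%) reached. Adjusted over all genes, limma gave 0.761 for each of them, and 0 of 8 were called, as were 0% of all genes.

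By size of the interaction, 1 of 8 genes was 2-fold or more above 0 and 4 of 8 below (Bco1, Aldh1a1, Cyp26b1 and Isx), where all genes had 17.5% and 16.9% (34.4% together). Bco1 was higher after weaning in both settings, by 0.94 in SPF and 2.49 in germ-free ileum. The interaction of Lrat was 0.07 ± 1.38 (SE), so the interval of that difference is wide although its estimates, -1.41 and -1.48, lay close. Germ-free weaning crosses the divide between the sides and SPF weaning does not, so this contrast carries that divide as well. Dhrs3, a retinal reductase that retinoic acid induces, is 1 of the 44 probes that mark the divide, at 12.30 in SPF preweaned, 10.43 in SPF postweaned and 10.79 in germ-free postweaned ileum against 5.74 or less in the other 3 samples.

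SPF and germ-free mice were next compared at each stage. In postweaned ileum, the pair of groups that lies on a single side of the divide, Cyp26b1 was not above background in SPF mice (6.53) and stood at 8.66 in germ-free mice. That is a difference of -2.13 ± 0.48 (SE), or at least 3.75-fold lower in SPF. Scarb1 was detected in SPF ileum (arrays at 7.53 to 7.84) and not in germ-free ileum (6.22 to 6.44), and was at least 1.12-fold higher. Aldh1a1 was lower in SPF by 1.38, at 12.20 against 13.58, which its preweaned pair gap of 3.00 exceeded. Isx (-0.98 ± 0.46, SE), Bco1 (-0.85 ± 0.63, SE), Lrat (-0.52) and Rdh7 (-0.51) were lower in SPF, and Rbp2 was higher (0.80 ± 0.60, SE).

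Cyp26b1 had an unadjusted limma p of 0.0163 in the postweaned comparison and an adjusted p of 0.9998. Limma called 0 of the 8 genes and 0% of all genes, and 521 genes (4.27%) had an unadjusted p under 0.05. At 2-fold or more, 1 of 8 was higher in SPF and 2 of 8 lower, beside 9.02% and 6.37% of all genes (15.4% in either direction). The higher one, Scarb1, counts by its fitted difference, while its bound was 1.12-fold. When arrays were scaled to a common 75th percentile in place of quantile normalisation, the higher calls among all genes at 2-fold were 41.3% in place of 58.6%, and the median of all genes moved by -0.14. The Cyp26b1 and Scarb1 differences kept their direction under that scaling. B and T lymphocyte markers were higher in SPF postweaned ileum in 8 of 8 cases (5 at 2-fold or more, median 2.50), and proximal intestine markers 2-fold or more higher in 6 of 11. Distal ileum markers were 2-fold or more lower in 4 of 10 (median -0.95). Of 12 dendritic cell and macrophage markers, 10 were above background in SPF and 3 in germ-free ileum. The part of these differences in Cyp26b1 or Scarb1 was not tested.

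In preweaned ileum the SPF sample had more Rbp2 than germ-free samples, at 14.99 against 13.24 and 13.96, a difference of 1.39 ± 0.52 (SE; 2.63-fold), beyond the pair's gap. Scarb1 was not above background in SPF preweaned ileum and was at least 1.71-fold lower than in germ-free preweaned ileum (-1.38 ± 0.44, SE; unadjusted limma p 0.0431). Isx was higher in SPF by 0.84 ± 0.39 (SE), at 12.10 against 11.28 and 11.24. This comparison crosses the divide, on which the sample levels of Scarb1 separate, and the part of Isx in Scarb1 was not tested. The remaining differences (Aldh1a1 0.91, Bco1 0.70, Cyp26b1 0.50, Rdh7 0.27 and Lrat -0.59) had opposite signs against the 2 germ-free samples or lay under the pair's gap, apart from Cyp26b1, which was 0.63 and 0.37 above the germ-free preweaned samples.

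Limma called 0 of 8 genes in that comparison and 0% of all genes, with a smallest adjusted p of 0.503 among the 8. There 1182 genes (9.69%) had an unadjusted p under 0.05. Only Rbp2 (higher) and Scarb1 (lower) reached 2-fold among the 8, so 1 of 8 in each direction, beside 11.5% higher and 11.1% lower of all genes (22.6% together). Scarb1 counts there by its fitted difference, while its bound was 1.71-fold. The count in either direction was 6 of 8 without germ-free preweaned 2 and 3 of 8 without germ-free preweaned 1. Array series as a term repeats the fit without germ-free preweaned 2 by construction. This comparison shares its germ-free samples with humanized against germ-free, and its SPF sample with humanized against SPF, so those values are not independent of each other. Markers of dendritic cells and macrophages were 2-fold or more lower in SPF in 8 of 12 cases, those of fibroblasts and smooth muscle in 5 of 8, and proximal intestine markers 2-fold or more higher in 6 of 11. Their part in Rbp2 and Scarb1 was not tested.

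The humanized sample was set against each of the other preweaned groups, which asks how mice with the humanized community compare with SPF mice and with germ-free mice. Against SPF preweaned ileum, Scarb1 was at least 2.99-fold higher, at 8.98 against 6.79 (2.19 ± 0.51, SE; unadjusted limma p 0.0176, adjusted 0.484). Isx was lower by 1.20 ± 0.46 (SE), at 10.89 against 12.10, and Rbp2 by 0.98 ± 0.60 (SE), at 14.005 against 14.99. Rdh7 was higher by 1.51 and Aldh1a1 by 0.79, both under their pair gaps. With array series as a term both turned, to -1.42 and -2.20, as did Lrat, to 0.92. Then 6 of the 8 genes were at 2-fold or more. That term is set by the germ-free preweaned pair alone, so these values only carry the pair's gap into the comparison. Cyp26b1, not above background in the humanized sample, was at least 1.18-fold lower, Lrat differed by -0.79 and Bco1 by -0.05.

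Of the 8 genes, 2 were 2-fold or more higher in humanized than SPF ileum (Scarb1, Rdh7) and 1 lower (Isx), beside 15.3% and 14.6% of all genes (29.8% together). Limma called 0 of 8 and 0% of all genes, and 1241 genes (10.2%) had an unadjusted p under 0.05. The comparison crosses the divide, between whose sides the Scarb1 means also differed. Suckling enterocyte markers were 2-fold or more lower in humanized ileum in 11 of 16 cases and endothelial markers 2-fold or more higher in 8 of 9. Fibroblast and smooth muscle markers above background numbered 7 of 8 in humanized and 3 of 8 in SPF preweaned ileum, with mean levels of 9.57 and 6.70. Those of dendritic cells and macrophages numbered 12 and 3 of 12, with means of 8.79 and 7.26. The part of such cells in Scarb1 or Aldh1a1 was not tested.

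Against germ-free preweaned ileum, which lies on the same side, the humanized sample had Rdh7 at 12.55 against 9.31 and 12.24, and Aldh1a1 at 14.27 against 11.07 and 14.07. The mean differences were 1.78 ± 1.44 and 1.70 ± 1.47 (SE), and they came from germ-free preweaned 1. Against germ-free preweaned 2 alone, Rdh7 differed by 0.31 and Aldh1a1 by 0.20. Lrat was lower in the humanized sample by 1.38, by 2.24 against germ-free preweaned 1 and by 0.52 against 2. Scarb1 was higher against both (1.01 and 0.61) and Isx lower against both (-0.38 and -0.34). Bco1 (0.65) and Rbp2 (0.41) were higher by less than their pair gaps. Cyp26b1 was above background in none of these samples.

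At 2-fold or more, 2 of 8 were higher and 1 lower in humanized than in germ-free ileum, beside 4.16% and 2.34% of all genes (6.49% together). The count in either direction was 0 against germ-free preweaned 2 alone and 5 against germ-free preweaned 1 alone. Limma called 0 of 8 and 0% of all genes, 70 genes (0.574%) had an unadjusted p under 0.05, and the smallest adjusted p was 0.9999. Suckling enterocyte markers were lower in humanized ileum in 16 of 16 cases (10 at 2-fold or more, but 0 against germ-free preweaned 2 alone). Of the fibroblast and smooth muscle markers tested, 8 of 8 were higher (5 at 2-fold or more), as were 9 of 9 endothelial markers (6 at 2-fold or more). Against germ-free preweaned 2 alone, 3 and 2 of these were 2-fold or more higher, and against 1 alone 6 and 7. Col1a2 and Tagln were above background in 1 sample each and highest in the humanized one (8.69 and 7.32). Their part in the vitamin A genes was not tested. The humanized sample and germ-free preweaned 2 carry array numbers of a series apart from the other 4 samples, so the closeness of this pair and the array series cannot be told apart.

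Rdh7 and Aldh1a1 spanned the widest ranges of the 9 genes over the 6 samples (3.24 and 3.20) and had like patterns, with a Pearson correlation of 0.95 over 6 samples. Among 4796 genes of sufficient spread, Tmprss2 (r = 0.996), Cyb5b (0.993) and Acy1 (0.989) were most like Rdh7. Tmprss2, a membrane serine protease, stood at 12.06 in humanized, 10.53 in SPF postweaned, 10.74 in SPF preweaned, 10.89 in germ-free postweaned, and 9.51 and 11.61 in germ-free preweaned ileum. Among 4269 genes, Ppp1r1b (0.992), Angptl4 (0.987) and Sesn1 (0.985) were most like Aldh1a1. Angptl4, a secreted inhibitor of lipoprotein lipase, ranged between 8.72 in germ-free preweaned 1 and 13.38 in the humanized sample. All of these were lowest in germ-free preweaned 1. How far each correlation rests on that sample was not computed, and the points share arrays and normalisation. That sample also had the lowest mean of enterocyte markers, 13.36 against 14.34 to 14.84. Its means were highest for exocrine pancreas markers (9.997 against 7.93 to 8.78) and hepatocyte markers (8.96 against 6.96 to 8.35). The markers of each list did not run together. In the pancreas list Ctrb1 (12.16), Cela1 and Clps were highest in that sample, but Cpa1 (6.55) was not. In the hepatocyte list Ttr (14.75) and Cps1 (13.10) were highest there, but Alb (6.19), Apoa2, Cyp2e1 and Tat were not. The part of tissue content in these patterns was not tested.

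Lrat followed another marker set. Its order over the 6 samples was that of the mean of 16 suckling enterocyte markers, which stood at 10.46 in humanized, 9.93 in SPF postweaned, 12.91 in SPF preweaned, 10.38 in germ-free postweaned, and 13.20 and 10.62 in germ-free preweaned ileum. Germ-free preweaned 1 and SPF preweaned ileum were the high samples in both. Of 12196 genes, 93 had this same order, and Lrat was the only 1 of the 8 tested vitamin A genes that did. The match was noticed after the values were seen and is given with no test.

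**Figure D4:**
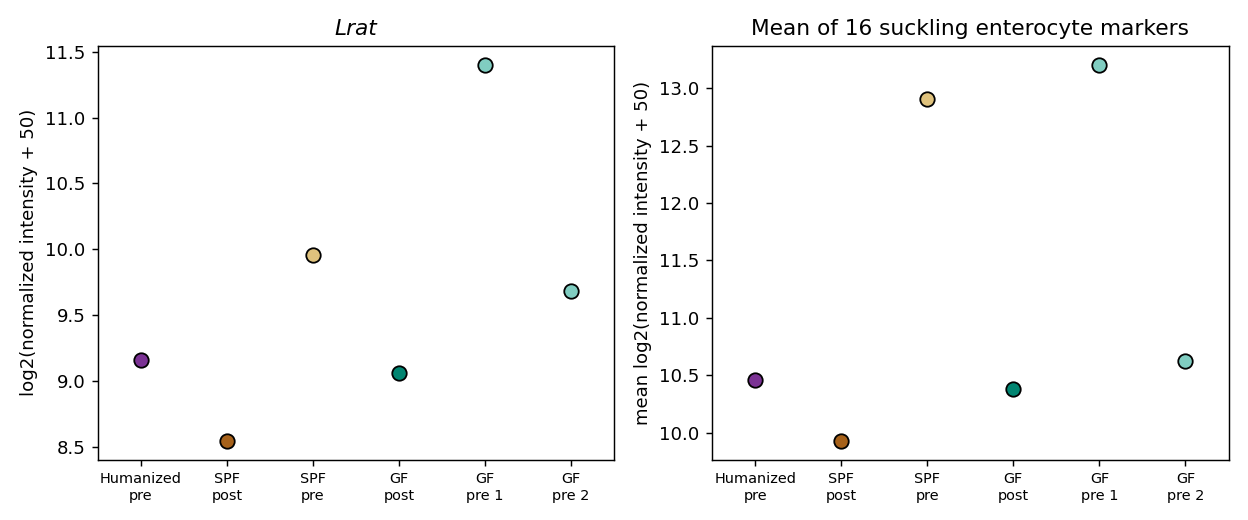
Log2 level of Lrat (left) and mean log2 level of 16 suckling enterocyte markers (right) in each of the 6 samples (x axis). Each point is a sample; both panels have germ-free preweaned 1 highest, SPF preweaned next and SPF postweaned lowest.

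The rest of the vitamin A pathway was read from 6 lists, none of which had a limma call in any comparison (0). For each list the counts at 2-fold are given in 1 or 2 comparisons and as a range over all 7. Of 15 further genes of retinoid uptake and esterification, 11 were tested, and in SPF weaning 5 stood 2-fold or more higher and 2 lower, with a median difference of 0.45 against -0.04 over all genes, of which 10.5% and 8.64% were that far apart. Over the 7 comparisons 1 to 5 were higher and 1 to 3 lower. Plb1, an intestinal phospholipase and retinyl ester hydrolase, had the widest range of the list, at 12.88 in SPF postweaned against 8.64 in SPF preweaned, and 14.54 in germ-free postweaned against 6.16 and 12.26 in germ-free preweaned ileum. Ttr, the plasma carrier of the retinol-binding complex, ran the other way, at 8.10 against 12.14 in SPF weaning and 7.68 against 14.75 and 8.53 in germ-free weaning. Stra6l, a retinol transporter, was above background in SPF preweaned (9.90) and germ-free preweaned 1 (10.68) and at 6.36 or less elsewhere. The high samples of Stra6l and Ttr were thus those that also had the most Lrat. Bco2, which cleaves carotenoids off-centre, lay between 11.76 and 12.35 except in germ-free preweaned 1 (9.20), and Dgat1, an enzyme that also esterifies retinol, between 12.56 and 14.31.

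Of 26 retinol and retinal oxidoreductases, 25 were on the array and 18 tested. In humanized against SPF ileum 9 were 2-fold or more higher and 3 lower (median 0.93 against 0.01, with 15.3% and 14.6% of all genes). In humanized against germ-free 6 were higher and 1 lower (median 0.70 against -0.02, with 4.16% and 2.34% of all genes), but 2 and 0 against germ-free preweaned 2 alone and 9 and 2 against germ-free preweaned 1 alone. Over the 7 comparisons 1 to 9 were higher and 1 to 6 lower. Akr1b7, an aldose reductase relative that can reduce retinal, stood at 14.22 in humanized, 13.09 in SPF postweaned, 11.41 in SPF preweaned, 12.99 in germ-free postweaned, and 7.69 and 13.93 in germ-free preweaned ileum. As with Rdh7 and Aldh1a1, germ-free preweaned 1 was the low sample. Rdh9 stood at 11.09 in humanized, 10.29 in SPF postweaned, 9.08 in SPF preweaned, 12.52 in germ-free postweaned, and 8.31 and 11.70 in germ-free preweaned ileum.

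Among 15 retinoic acid binding proteins, receptors and cofactors, 12 were tested. In SPF against germ-free preweaned ileum 3 were 2-fold or more higher and 1 lower (11.5% and 11.1% of all genes), and in the interaction 1 and 5 (17.5% and 16.9%). Over the 7 comparisons 0 to 3 were higher and 0 to 5 lower. Crabp1 (8.62 to 11.20) and Crabp2 (7.81 to 8.74), which carry retinoic acid in the cell, were above background in all 6 samples. Ppard, a fatty acid receptor, stood at 9.85 to 9.97 in both SPF samples and the germ-free postweaned one and at 6.68 to 8.29 in the others, and Nrip1, a nuclear receptor corepressor, at 7.73 to 8.23 and 10.58 to 10.81 in the same sets. Both therefore split the samples along the same divide. Rarb, a receptor that retinoic acid induces, was not above background in any sample.

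Of 18 genes known to respond to retinoic acid, 11 were tested. In SPF against germ-free postweaned ileum 4 were 2-fold or more higher and 1 lower (9.02% and 6.37% of all genes), and the median was 0.66 against -0.02 over all genes. Itgb7, among the higher ones, was above background in 1 sample only and highest in SPF postweaned ileum (9.94), so that count leans on the filter. Over the 7 comparisons 1 to 4 were higher and 1 to 3 lower. Cyp26a1, Rarb and Stra6, among the most used readouts of retinoic acid, were not above background in any sample. Rarres2, which encodes the chemoattractant chemerin, stood at 6.99 in SPF postweaned against 9.04 in SPF preweaned ileum and at 10.37 in germ-free postweaned against 10.60 and 10.43 in germ-free preweaned ileum. Rarres1 was above background in SPF preweaned (9.13) and germ-free preweaned 1 (9.72) only, the same samples as Stra6l.

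Among 16 transcription factors of the enterocyte, 14 were tested. In SPF against germ-free postweaned ileum 2 were 2-fold or more higher and 4 lower (9.02% and 6.37% of all genes), and over the 7 comparisons 0 to 2 were higher and 0 to 4 lower. Cdx2 (10.85 to 11.83), which activates Isx in the intestine, and Hnf4a (12.13 to 13.31), a regulator of enterocyte genes, were above background in all 6 samples. Ppara, a fatty acid receptor, stood at 8.00 in SPF postweaned against 10.87 in SPF preweaned ileum, and at 9.45 in germ-free postweaned against 8.28 and 10.36 in germ-free preweaned ileum. Prdm1, a repressor that keeps the suckling program and also stands in the suckling list, was highest in germ-free preweaned 1 at 11.03. Nr1h4, the bile acid receptor, was highest there as well, at 13.50 against 11.21 to 12.12 in the others.

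All 11 chylomicron assembly genes were tested, since retinyl esters leave the enterocyte in these particles. In germ-free weaning 2 were 2-fold or more lower and 0 higher (12.7% and 11.6% of all genes), with a median of -0.74 against -0.0044 over all genes. Over the 7 comparisons 0 to 3 were higher and 0 to 2 lower. Apob, the structural protein of the particle, stood at 11.67 in germ-free postweaned against 13.86 and 13.52 in germ-free preweaned ileum, and at 12.61 in SPF postweaned against 10.97 in SPF preweaned ileum. Dgat2, which makes triglyceride, stood at 11.38 against 13.53 and 13.33, and at 11.80 against 12.89. Apobec1, the editing enzyme of the Apob transcript, ranged between 9.78 and 11.24.

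**Figure D5:**
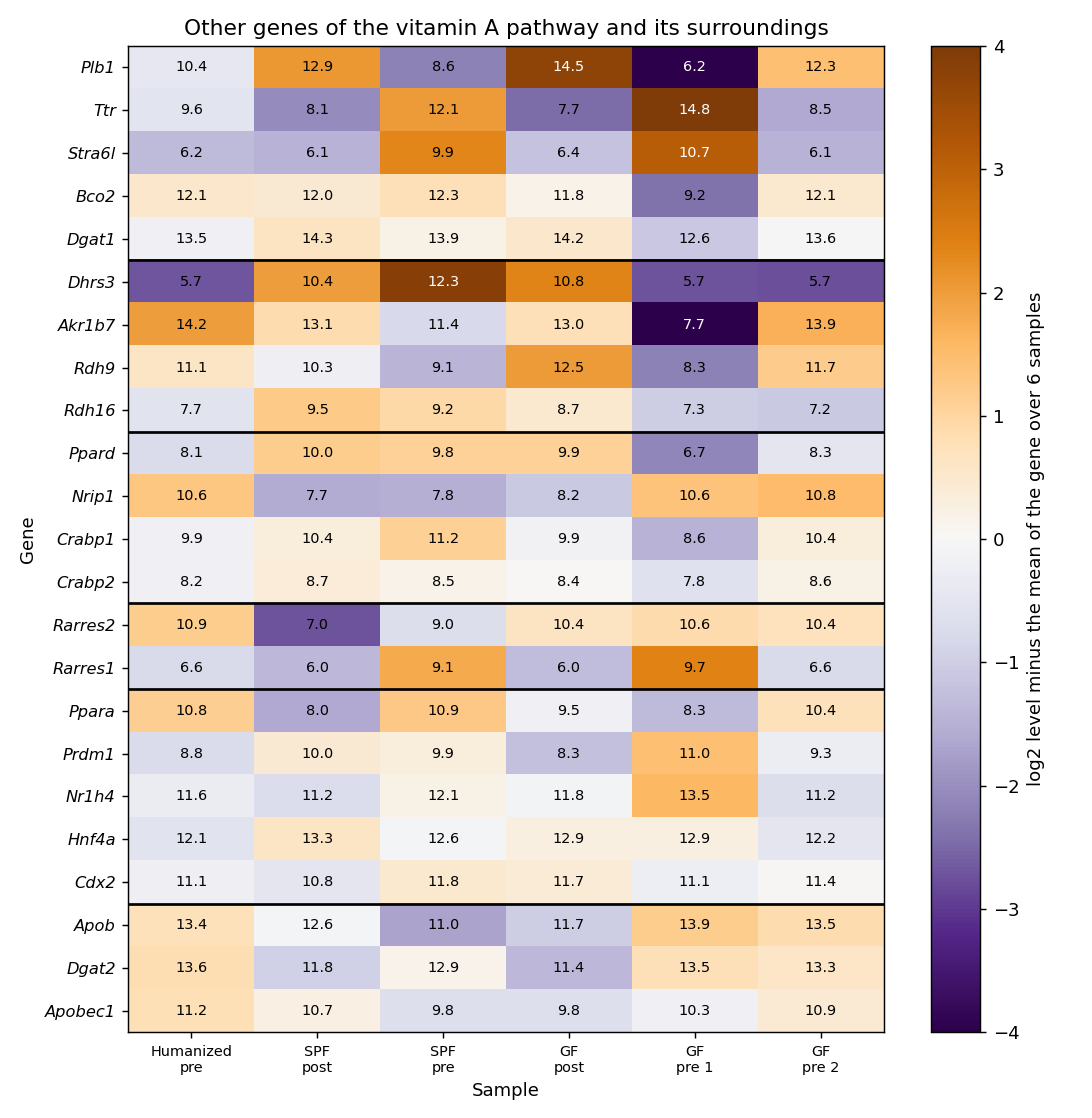
Log2 level of 23 further pathway genes (rows, by list) in each sample (columns). Numbers are log2 levels and colour is the level minus the gene's mean over the 6 samples. Plb1, Ttr, Dhrs3 and Akr1b7 have the strongest colours, and germ-free preweaned 1 is often the highest or lowest sample.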

How the data were processed

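Ileal total RNA of 6 samples was amplified, labelled with Cy5 and hybridised to Mouse OneArray slides, per the labels. The authors deposited, per the file headers, a whole-number intensity for each probe and array, some below 0, with a detection p-value and a spot flag. For the image software, the background method and the origin of the detection p-value, the labels and headers give no statement. Flags did not filter probes. Most samples have 3 arrays and germ-free preweaned 1 has 6. The authors' value table, also an intensity, matched the mean of the raw arrays of a sample and was not normalised between samples.

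In R 4.3.3, the 21 arrays were quantile normalised, values below 0 set to 0, 50 added and log2 taken. Arrays were averaged within a set of columns, then sets within a sample. Of 26423 probes, 22553 had 1 symbol, 237 several and 3633 none, and 2151 symbols were updated from older ones. Probes above background in at least 1 sample were kept, the brightest for each gene. Limma 3.58.1 was fitted to the 6 sample means with 5 group means, with Benjamini-Hochberg adjustment over 12196 genes, two-sided. The procedure was tested on simulated data. The number of samples, rather than of arrays, limits the precision.

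The 9 genes, the gene lists and the marker lists were chosen with earlier results of these data known. The genes named are all 9, the 3 most like each of the 2 with the widest range, the 3 of each list with the widest range, and a few set list genes. Some further list and marker genes are named only to show a limit of a count or mean. Alternatives were another scaling, offset, filter, probe rule, source, column set, model and array series, and leaving out a replicate.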

Additional observations from a re-analysis of the deposited data

How the results depend on the processing

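Limma called 0 genes under every alternative with a test, and of 755 values of the 8 genes over 14 settings and 7 comparisons, 728 kept their direction, 27 turned it and 0 passed the threshold (smallest adjusted p 0.325). Many of the values that kept their direction could not have turned. The limma setting with trend and robust options leaves every difference as it was. The array sets and left-out replicates alter these genes only in comparisons with germ-free preweaned ileum. The count of kept directions is therefore no measure of robustness. The cause of each change was not tested unless stated. The normexp background correction was not run, since the files hold no separate foreground and background. No paired analysis was possible because the labels carry no replicate numbers. Offset 200 gave 49.2% to 59.8% of the 2-fold genes, and requiring a signal in all samples gave 43.4% to 56.8%, a filter that by its construction tests fewer genes. Scaling to the 75th percentile moved the median of all genes by at most 0.14 and the higher share of 2-fold calls in SPF against germ-free postweaned ileum to 41.3%, against 58.6%.

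The number of the 8 genes at 2-fold or more changed as follows. Array series as a term is set by the germ-free preweaned pair alone. Where that group enters a comparison, the term repeats a fit that leaves out a replicate. For humanized against germ-free it was 0 to 5 on leaving out a germ-free preweaned replicate (3 as reported) and 0 with array series as a term. For humanized against SPF it was 6 with array series (3 as reported). For SPF against germ-free preweaned it was 1 under scaling, offset 200, the filter in all samples and the additive model, 3 to 6 on leaving out a replicate, and 6 with array series (2 as reported). For SPF against germ-free postweaned it was 1 under the filter in all samples and the additive model (3 as reported). For germ-free weaning it was 2 under offset 200, that filter and the additive model, and 3 to 6 on leaving out a replicate (5 as reported). For SPF weaning it was 6 under offset 16 (3 as reported), and for the interaction 2 under that filter (5 as reported).

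The additive model forces equal weaning differences with and without microbes, and it turned these values. Bco1 became 0.39 in humanized minus SPF. In SPF minus germ-free preweaned, Rdh7 became -0.068, Aldh1a1 -0.073 and Cyp26b1 -0.62, and in SPF minus germ-free postweaned Scarb1 became -0.19, Bco1 0.035 and Isx 0.059. Isx became -0.68 in germ-free weaning, and in SPF weaning Scarb1 became -0.68, Rdh7 0.16, Aldh1a1 0.036 and Cyp26b1 0.53. Array series as a term turned Lrat to 0.92, Rdh7 to -1.42 and Aldh1a1 to -2.20 in humanized minus SPF, and Rbp2 to 0.12 in germ-free weaning. In SPF minus germ-free preweaned, Rdh7 was -0.10 under scaling and -0.086 with the second array set of germ-free preweaned 1, and with the first set the interaction of Lrat was -0.088.

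On leaving out a germ-free preweaned replicate, SPF minus germ-free preweaned ran between -1.45 and 0.27 for Lrat, -1.20 and 1.73 for Rdh7, and -0.59 and 2.40 for Aldh1a1. Germ-free weaning ran between -0.97 and 1.96 for Rdh7, -0.48 and 2.51 for Aldh1a1, and -0.59 and 0.12 for Rbp2. The interaction ran between -0.79 and 0.93 for Lrat and between -2.24 and 0.69 for Rdh7.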
